A study of Mus musculus with 32 samples.

Results

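Smooth muscle cells contract through a set of proteins that few other cells make together. The RNA of 37 genes from that set was followed here in mouse arteries with atherosclerotic lesions and in cultured aortic smooth muscle cells. Both were labelled as wild type or as lacking the gene of the transcription factor Oct4 (Oct4 -/-). The 37 genes were chosen by symbol from a list of contractile, cytoskeletal and regulatory genes and were all present among the 23284 genes of each count table. All 37 had enough counts to be tested in the lesions, where 14993 genes were tested. In culture 32 of them were tested among 14496 genes. The other 5 (Ppp1r14a, Pdlim3, Des, Kcnmb1 and Casq2) were at or near 0 in the cultured cells.

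The lesion samples were brachiocephalic arteries of C57BL/6 mice kept on a Western diet for 18 weeks, from 4 Oct4 -/- animals (KO) and 4 wild-type animals (WT), with 1 library per animal. Their RNA came from a mixture of cell types, which the labels give as smooth muscle, epithelial, macrophage and others. The cultured cells came from 1 WT and 1 Oct4 -/- primary aortic smooth muscle line, also C57BL/6, so genotype and line cannot be told apart in culture. Each line was given vehicle or POVPC, an oxidized phospholipid of the kind found in atherosclerotic lesions, in normoxia or in hypoxia (1% oxygen), which made 8 groups of 3 libraries. The labels name neither the driver of the Oct4 deletion nor any further allele, and do not say whether the culture triplicates were separate cultures, so p-values in culture measure only the spread between these samples.

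In a resting artery the contractile smooth muscle cell slides myosin II filaments (heavy chain Myh11, light chains Myl6 and Myl9) along thin filaments of smooth muscle actin (Acta2, Actg2). Calcium entering through the L-type channel Cacna1c activates myosin light chain kinase (Mylk), and the myosin phosphatase, whose regulators include Ppp1r12b and Ppp1r14a, reverses the step. Many of these genes are controlled by serum response factor (Srf), which binds a short DNA element, the CArG box, and by its coactivator myocardin (Myocd). In culture and in atherosclerotic lesions smooth muscle cells are known to lose these proteins, a change called phenotypic modulation.

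CArG boxes are shown here because they are the element through which Srf and myocardin reach these genes. The box was searched as CC, then 6 bases that are A or T, then GG, a form that reads alike on both strands. Promoters were taken from RefSeq (GRCm38.p6) as 250 bases before to 50 bases after each annotated start and were matched by symbol. The count tables use mm9, and no coordinate was carried from one build to the other. Of the 37 genes 33 had an entry (Actg2, Tagln, Myh11 and Myocd had none). The box stood in 7 of the 33 (21.2%: Fhl1, Fhl2, Ldb3, Myl6, Myl9, Srf and Vcl), against 488 of 27025 genes (1.81%). With boxes allowed to hold 1 G or C among the 6 central bases, it stood in 11 of 33 (33.3%) and in 3050 of all genes (11.3%). A match is a description of the letters, not of binding. Windows around the boxes of 6 genes that differ in how their RNA behaved below are printed 5′ to 3′ on the strand of the gene, with the boxes in capitals.
Acta2, chr19:34255378-34255477, minus strand, both boxes with 1 G or C inside, 84 and 34 bases upstream of the start: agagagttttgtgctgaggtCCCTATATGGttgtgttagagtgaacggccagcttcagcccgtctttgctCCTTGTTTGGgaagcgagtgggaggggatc
Myl9, chr2:156775283-156775394, plus strand, a full box 161 bases upstream and a box with 1 G 99 bases upstream: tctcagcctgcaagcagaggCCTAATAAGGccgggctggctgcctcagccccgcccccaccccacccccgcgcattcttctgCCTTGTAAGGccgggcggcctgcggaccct
Srf, chr17:46556195-46556264, minus strand, boxes 82 and 62 bases upstream: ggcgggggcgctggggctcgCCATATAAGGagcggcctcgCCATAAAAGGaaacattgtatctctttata
Fhl1, chrX:56779561-56779610, plus strand, box 102 bases upstream: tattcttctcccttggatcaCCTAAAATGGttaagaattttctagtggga
Vcl, chr14:20929151-20929200, plus strand, box 227 bases upstream: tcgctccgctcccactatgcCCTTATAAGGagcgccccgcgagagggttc
Ldb3, chr14:34588687-34588736, minus strand, box 35 bases upstream of the nearer start: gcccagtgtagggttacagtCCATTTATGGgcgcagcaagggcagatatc

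Levels are CPM, counts divided by the library size after TMM scaling and set to a common total, and differences are log2 fold changes with their standard errors (±) from edgeR. The verbs rose and fell are kept for genes with an FDR (the edgeR p-value adjusted over all genes tested) under 0.05. Libraries held 6526099 to 11137414 counts in lesions and 8063121 to 30231799 in culture. Lesion counts are fragments and culture counts are single mates, so a culture fragment can count more than once. The 3 shallowest in culture were WT POVPC hypoxia 2 and 1 and KO vehicle hypoxia 3 (8063121, 13663755 and 11618385 counts). Their multimapping alignments per assigned one were the most in culture (9.24, 5.795 and 8.07). Leaving them out keeps 1 WT POVPC hypoxia library, so for that group only the size of a change is then given. Pou5f1, which encodes Oct4, had at most 3 counts in any library, so its RNA does not check the genotype labels. Among the lesion libraries KO 4 stood apart on the first principal component (83.2, the other 7 between -38 and 8.04) and WT 1 on the second (39.9). In culture the ribosomal RNA gene Rn45s took 3.23 to 11.1% of counts in WT libraries given POVPC in normoxia and 1.31 to 1.498% in those given vehicle. Counting was unstranded, and 4 of the 37 genes share exon bases with a gene on the opposite strand (Tagln, Mylk, Pgm5 and Mrvi1), for which reads of the partners cannot be told apart. The overlap is 1401 of 7981 bases in Pgm5 and 95 to 333 bases in the other 3.

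All 37 genes were measurable in the arteries, at levels that spanned a wide range. Per kilobase of exon, WT lesions held 1135 ± 311 CPM of Acta2 (SD, n = 4), 651 ± 75.4 of the actin crosslinker Flna, 625 ± 197 of the actin-binding protein Tagln, 475 ± 116 of Myl9, 474 ± 73.2 of Myl6 and 420 ± 54.8 of Myh11. Acta2 lay above the next gene, and neighbours from Flna to Myh11 did not differ beyond their spread. Myocd was at 16.9 ± 1.49 CPM per kilobase, and the lowest of the 37 were Fhl2 and Casq2, at 3.24 ± 0.813 and 0.969 ± 0.188.

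In the WT cultured line under vehicle and normoxia the order per kilobase was led by Myl6 (718 ± 33.3 CPM per kilobase, SD, n = 3), the LIM protein Fhl1 (595 ± 21.95), Flna (273 ± 12.1), caldesmon Cald1 (272 ± 2.67), vinculin Vcl (152 ± 3.40) and Acta2 (148 ± 14.4). Flna and Cald1 did not differ beyond their spread, nor did Vcl and Acta2. The genes that define the contractile state were low: Tagln at 5.71 ± 0.497 CPM per kilobase, Mylk at 4.57 ± 0.0811, Myh11 at 0.776 ± 0.0595, the calponin Cnn1 at 0.747 ± 0.141 and Myocd at 0.123 ± 0.0758. Pdlim3 and Kcnmb1 were at 0 in this group, with at most 2 counts in any culture library. Of the defining markers of the labelled cell type, Acta2 was well above 0 in culture, while Myh11, Cnn1 and Myocd were near 0. The lesion and culture tables were normalized separately, so these levels stand side by side without a test.

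In lesions the contractile genes were lower in KO than in WT arteries almost throughout, but no gene of the 37, and none of the 14993 tested (0%), passed the FDR threshold with edgeR. Of the 37, 34 had a log2 fold change below 0 (51.3% of all genes did), and their median was -0.39 against -0.01 over all genes. At an unadjusted p under 0.05, 20 of 37 were lower (5.59% of all genes) and 0 higher (9.19% of all genes). In 10 of 37 all 4 KO libraries lay below all 4 WT libraries, which held for 3.33% of all genes. The 37 genes were measured in the same animals, so these counts are not of independent results. Their median centred log2 CPM was -0.40, -0.23, -0.04 and 0.01 in the KO libraries and 0.04, 0.22, 0.44 and 0.06 in the WT libraries. DESeq2 on the same counts called 9 of the 37 lower and 0 higher, against 1.13% and 2.15% of all genes with an adjusted p.

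The calcium and potassium genes had the lowest median of the 6 roles (-0.52). Kcnma1, the pore of the large-conductance potassium channel that relaxes the artery, was at 54.6, 45.6, 50.5 and 50.6 CPM in the KO animals and 70.7, 84.1, 96.6 and 75.1 in the WT animals. No KO value reached the lowest WT value, and its log2 fold change was -0.70 ± 0.11, with an edgeR FDR of 0.161. Mrvi1, a substrate of the cGMP kinase that dampens calcium release, was at 104, 121, 125 and 155 CPM in KO and 193, 198, 224 and 165 in WT (-0.63 ± 0.14, FDR 0.170). Cacna1c was at 53.4, 55.0, 47.1 and 73.9 CPM in KO and 88.8, 80.1, 91.2 and 73.7 in WT. KO 4 and WT 4 overlapped there, and the log2 fold change was -0.54 ± 0.14 (FDR 0.172). Kcnmb1, the accessory subunit of the same potassium channel, had -0.49 ± 0.19, and Casq2, a calcium store protein, had 0.55 ± 0.35 with overlapping libraries.

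Myocd, the coactivator, was at 43.5, 50.4, 45.7 and 70.4 CPM in KO and 79.4, 84.0, 97.3 and 85.6 in WT. The groups did not overlap, and the log2 fold change was -0.72 ± 0.15 (FDR 0.170). Srf itself had -0.11 ± 0.10.

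Among the myosin genes Myh11 was at 1485, 1877, 1802 and 2181 CPM in KO and 2570, 2820, 3280 and 2462 in WT. All KO values were lower, by -0.60 ± 0.16 (FDR 0.172). Ppp1r12b, a targeting subunit of myosin phosphatase, was at 70.8, 82.0, 76.2 and 101 CPM in KO and 119, 114, 142 and 118 in WT, again without overlap (-0.58 ± 0.12, FDR 0.170). Mylk was at 380, 472, 500 and 563 CPM in KO and 607, 670, 761 and 567 in WT, where KO 4 and WT 4 were nearly equal (-0.44 ± 0.15, FDR 0.227). The essential light chain Myl6, which is not confined to muscle, had -0.09 ± 0.13.

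The thin filament genes were less separated. Acta2 was at 1240, 1548, 1816 and 1817 CPM in KO and 1397, 2158, 2707 and 1816 in WT. WT 1 lay below 3 of the KO animals and the log2 fold change was -0.33 ± 0.22 (FDR 0.516). Tagln ran from 613 to 1000 CPM in KO and from 670 to 1379 in WT (-0.25 ± 0.24, FDR 0.655), and Cnn1 from 139 to 184 in KO and 153 to 289 in WT (-0.43 ± 0.18, FDR 0.325). In each of these 3 genes WT 1 was the lowest WT value. Leiomodin Lmod1, an actin nucleator of smooth muscle, was the only 1 of the 10 thin filament genes without overlap (-0.43 ± 0.14). Its values in KO 4 and WT 4 were nearly equal (157.1 and 157.2 CPM).

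Of the LIM and PDZ proteins, Ldb3, which sits at the Z-disc of striated muscle, was at 32.5, 37.4, 36.3 and 54.3 CPM in KO and 68.6, 61.0, 76.2 and 60.0 in WT (-0.73 ± 0.16, FDR 0.170). Pdlim3 had -0.49 ± 0.16 and Fhl2 0.09 ± 0.23. In the adhesion and dense body group Synpo2, an actin-bundling partner of filamin, had -0.51 ± 0.14 without overlap. The values for Flna, the crosslinker Actn1 and Vcl were -0.42 ± 0.18, -0.46 ± 0.15 and -0.20 ± 0.15. The medians of the remaining roles were -0.44 for myosin and its regulation, -0.42 for the transcription pair, -0.34 for LIM and PDZ proteins, -0.30 for adhesion and dense bodies and -0.29 for thin filaments.

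**Figure D1:**
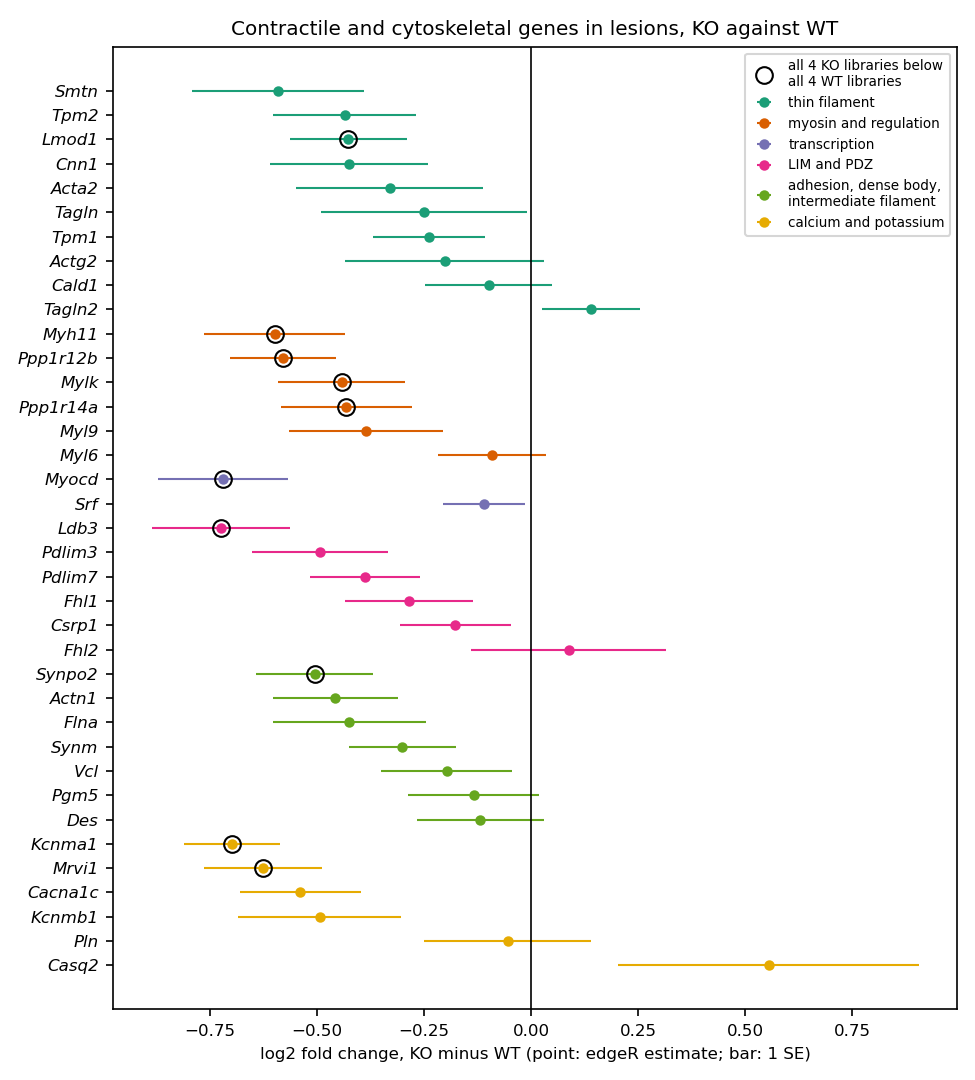
Log2 fold change (KO minus WT, lesions, ± SE) of the 37 genes, grouped by role, with a black ring where all 4 KO libraries lie below all 4 WT libraries. 34 of 37 points lie below 0, 10 carry a ring, and none passed the FDR threshold.

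**Figure D2:**
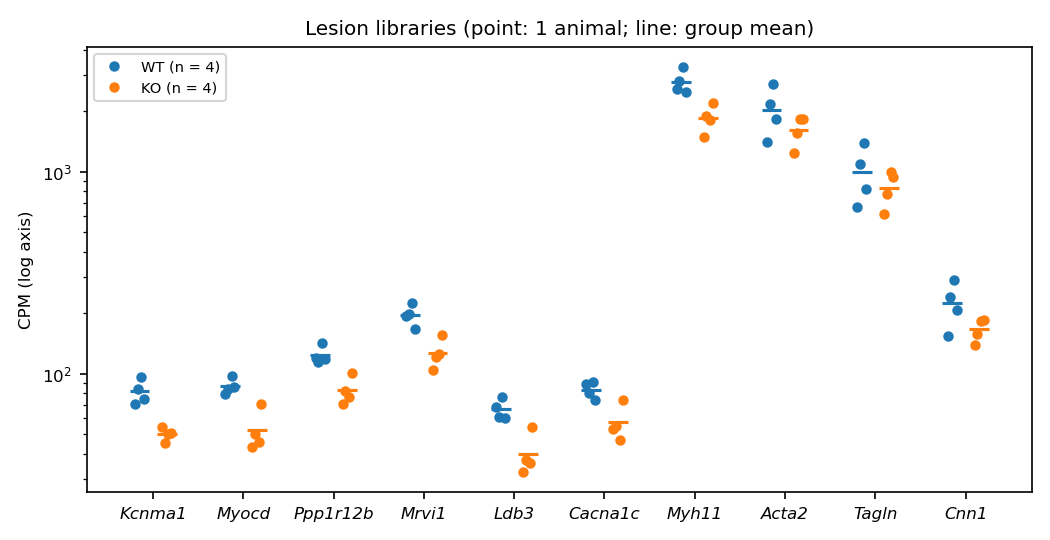
CPM (log axis) of 10 genes in each of the 4 KO and 4 WT lesion libraries, with a line at the group mean. The groups separate for Kcnma1, Myocd, Ppp1r12b, Mrvi1, Ldb3 and Myh11 and overlap for Cacna1c, Acta2, Tagln and Cnn1.

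Markers of other cell types also differed in level between KO and WT lesions, none of them past the threshold. The CPM of all 37 genes summed to 11680, 14170, 14690 and 16680 in the KO libraries and 16590, 19110, 22580 and 16650 in the WT libraries. The 16 macrophage markers summed to 5943 to 13740 CPM in KO and 3724 to 5697 in WT, and all 16 had a log2 fold change above 0 (median 0.85) although none passed the threshold. Lyz2, the lysozyme of macrophages, averaged 4915 CPM in KO and 1999 in WT. Within KO, animal 1 was lowest in the macrophage and contractile sums (5943 and 11680 CPM) and animal 4 highest (13740 and 16680). Within WT, animals 1 and 4 lay below animals 2 and 3 in both sums. Endothelial markers were above 0 in 8 of 10 (median 0.34, sums of 1746 to 2026 in KO and 1335 to 1676 CPM in WT), and adventitial fibroblast markers in 9 of 10 (median 0.20, 3911 to 4872 and 2377 to 4354 CPM). Striated muscle markers were below 0 in 13 of 13 tested (median -0.67), with sums of 39.2 to 116 CPM in KO and 69.4 to 220 in WT. Of all genes 51.3% were below 0. The markers of a list were measured in the same animals, so these counts are not of independent results. No marker of these 4 lists that was tested was at 0 in lesions. Their part in the lower contractile genes was not tested, and in these bulk samples fewer cells of a type and less RNA per cell cannot be told apart.

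**Figure D3:**
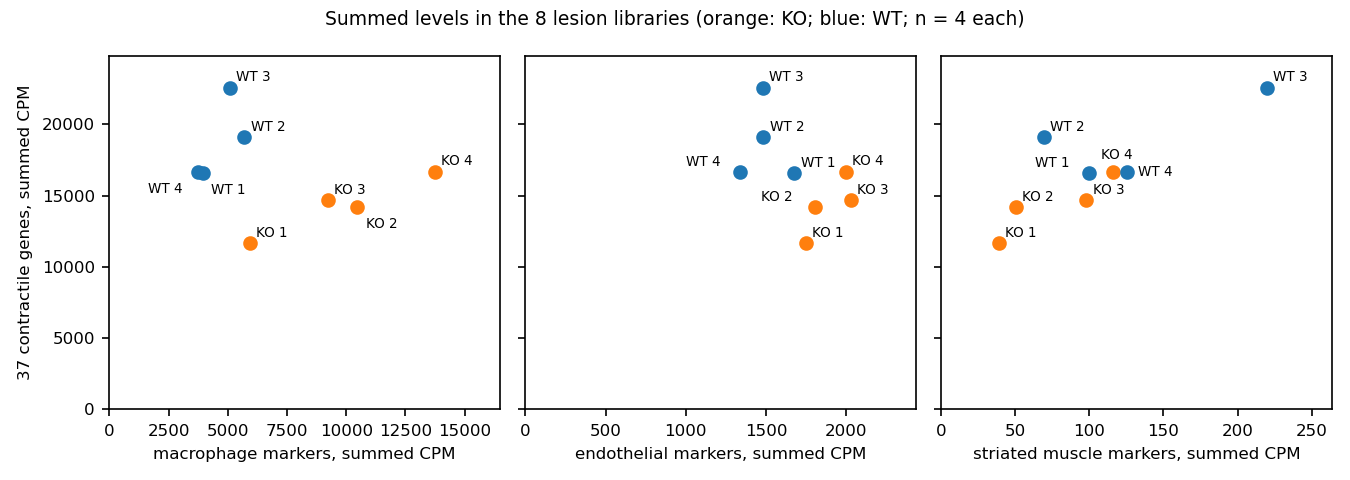
Summed CPM of the 37 contractile genes (vertical) against the summed CPM of macrophage, endothelial and striated muscle markers (horizontal) in the 8 lesion libraries. All 4 KO libraries lie above all 4 WT libraries in the macrophage sum. KO 4, the highest KO library in the macrophage and contractile sums, lies level with WT 1 and WT 4 in the contractile sum.

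Smooth muscle genes outside the 37 leaned the same way. Of 19 other smooth muscle genes tested, 15 were below 0 (51.3% of all genes were), with a median of -0.18. Of the 16 tested genes that control Srf and myocardin 7 were above 0 and 9 below, with a median of -0.02. None of these passed the threshold.

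The size of the lesion difference moved with single animals. Leaving out the 2 libraries that stood apart, KO 4 and WT 1, raised the count at an unadjusted p under 0.05 from 20 to 27 of 37 (7.79% of all genes) and took the median to -0.51. With 1 library left out the count ran from 14 (without KO 2, with 3.77% of all genes, or without WT 3, with 4.27%) to 25 (without WT 1, with 4.82%), and was 19 without KO 4 (8.77%). It also went with the length of the transcripts, in a split chosen after the values were seen. Of the 18 genes with under 3387 exon bases 5 were lower at an unadjusted p under 0.05 (3.94% of all genes of that length). Of the 19 longer genes 15 were (8.07% of all genes of that length). Among all genes 11% of the shorter and 6.48% of the longer were higher at that p. The medians of the contractile genes were -0.24 and -0.49, and those of all genes of these lengths 0.03 and -0.07. The part of length in the result was not tested.

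In culture the contrast between the KO and WT lines was large, with genes called both ways. Under vehicle and normoxia 17 of the 32 tested genes (53.1%) were lower in the KO line, against 30.8% of all genes. Another 8 (25%) were higher, which lay under the 29.8% of all genes. The lower genes included 6 that define the contractile cell (Acta2, Myh11, Tagln, Cnn1, Myocd and Mylk), and the higher ones included Pgm5, Mrvi1 and Myl9. The median over the 32 was -0.46, against -0.02 over all genes.

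Acta2 was at 233, 280 and 275 CPM in the WT libraries and 56.0, 56.5 and 62.4 in the KO libraries. The groups lay far apart, and the log2 fold change was -2.17 ± 0.19 (FDR 9.128e-09). Mylk was at 35.1, 36.4 and 35.5 CPM in WT and at 0.205, 0.394 and 0.558 in KO (4, 9 and 14 counts), a fall of -6.46 ± 0.30 (FDR 9.143e-17). It stayed at 0.573 CPM or less in every KO library of every condition. Myh11 had 155, 159 and 133 counts in WT (5.58, 5.06 and 4.81 CPM) and 10, 4 and 1 in KO (-4.47 ± 0.46, FDR 1.358e-09, and -5.55 without KO vehicle normoxia 1). Myocd had 6, 31 and 19 counts in WT and 2, 0 and 0 in KO (FDR 0.0009238), too few for a fold to be read. Cnn1 was at 1.22, 1.78 and 1.45 CPM in WT and at 0 to 0.351 in KO (-2.64 ± 0.64, FDR 0.0007843). Tagln was at 8.42, 8.81 and 9.94 CPM in WT and 3.95, 3.59 and 5.22 in KO (-1.08 ± 0.17).

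Genes of medium and high level fell as well. The largest of these falls were in Lmod1 (-3.49 ± 0.18), Cacna1c (-2.88 ± 0.13), Cald1 (-2.67 ± 0.12) and Fhl1 (-2.09 ± 0.08). Cacna1c went from 87.4, 83.9 and 86.8 CPM in WT to 10.4, 10.7 and 13.98 in KO, and Fhl1 from 1770, 1644 and 1716 CPM to 419, 386 and 399. Against these, Pgm5, a protein of adherens junctions in muscle, was at 0.792, 0.890 and 1.30 CPM in WT and 152, 166 and 184 in KO (7.39 ± 0.15, FDR 2.186e-25). Mrvi1 was at 0.792, 0.382 and 0.470 CPM in WT and 5.84, 4.996 and 6.85 in KO (3.43 ± 0.39). Myl9 went from 1.15, 1.65 and 1.23 CPM to 6.05, 5.70 and 6.77 (2.19 ± 0.26). The LIM protein Csrp1 was at 167, 184 and 189 CPM in WT and 514, 487 and 450 in KO (1.43 ± 0.10).

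In the other 3 conditions fewer genes were called lower in KO. In vehicle and hypoxia 7 of 32 were higher in KO (29.5% of all genes) and 10 lower (30.4%). With POVPC in normoxia 11 were higher (29.5%) and 11 lower (30.7%), and with POVPC in hypoxia 12 were higher (30%) and 6 lower (27.6%). The counts under vehicle and hypoxia and with POVPC in normoxia lay near these background shares or under them. The medians were -0.14, 0.08 and 0.36, against 0.01, -0.02 and 0.02 over all genes. Mylk, Cacna1c, Fhl1, Lmod1 and the intermediate filament protein Synm were lower in KO in all 4 conditions, and Pgm5, Myl9 and Csrp1 were higher in all 4. So was Fhl2, although its call under vehicle and normoxia (0.30 ± 0.11) was lost without KO vehicle normoxia 1 or WT vehicle normoxia 1 (both 0.25) and with scaling by library size alone (0.157). For Mylk the 4 differences ran from -6.46 to -4.05. They rest on 0 to 15 counts in each KO library, too few to compare their sizes between conditions. The differences ran from -2.88 to -1.56 for Cacna1c and from 1.43 to 2.25 for Csrp1. Acta2 was called lower in KO under vehicle and normoxia and in none of the other 3 conditions. Its levels in hypoxia under vehicle were 30.5, 34.8 and 28.6 CPM in WT and 37.2, 39.6 and 38.2 in KO. With POVPC in hypoxia it was called higher in KO (0.51 ± 0.21, FDR 0.042) with overlapping libraries. That call was lost when KO POVPC hypoxia 1 or 3, or WT POVPC hypoxia 1 or 2, was left out (0.31 to 0.41). It was also lost under 5 other alternatives (0.45 to 0.48), and without the 3 shallowest culture libraries the change was 0.15. Actg2, the gamma smooth muscle actin, had 20, 16 and 19 counts in KO and 0, 2 and 4 in WT in vehicle and hypoxia (FDR 0.0007007).

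Fibroblast markers also differed between the lines. Of 10 adventitial fibroblast markers 6 were higher (29.8% of all genes) and 3 lower (30.8% of all genes) in KO under vehicle and normoxia. Their summed CPM was 3889 to 4549 in KO, below the 4900 to 4926 in WT. Pi16 averaged 96.9 CPM in KO and 1.57 in WT, Ly6a 275 and 9.22, Cd34 118 and 1.49, and Clec3b 28.3 and 0.222. The 3 that were lower, named after their values were seen, were Dcn (2988 CPM in KO and 4348 in WT), Pdgfra (98.6 and 266) and Scara5 (35.7 and 53.9). The macrophage markers summed to 9.29 to 64.1 CPM over all 24 culture libraries, and Lyz2 averaged at most 0.484 CPM in any group. The part of the fibroblast markers in the contractile genes was not tested. Among the genes that control Srf and myocardin, 4 rose and 6 fell of 16, near the shares of all genes (29.8% and 30.8%). Of these, Mef2c, a muscle transcription factor, averaged 51.7 CPM in KO and 0.286 in WT. Klf4, a repressor of the contractile programme, averaged 216 and 76.8, and Hey2, a Notch target, 2.61 and 15.1. Of 18 other smooth muscle genes 5 were higher (29.8% of all genes) and 10 lower (30.8% of all genes). Sorbs2 (-2.74), Rgs5 (-3.85) and Jph2 (-3.25) were among the lower and Aoc3 (3.81) among the higher.

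**Figure D4:**
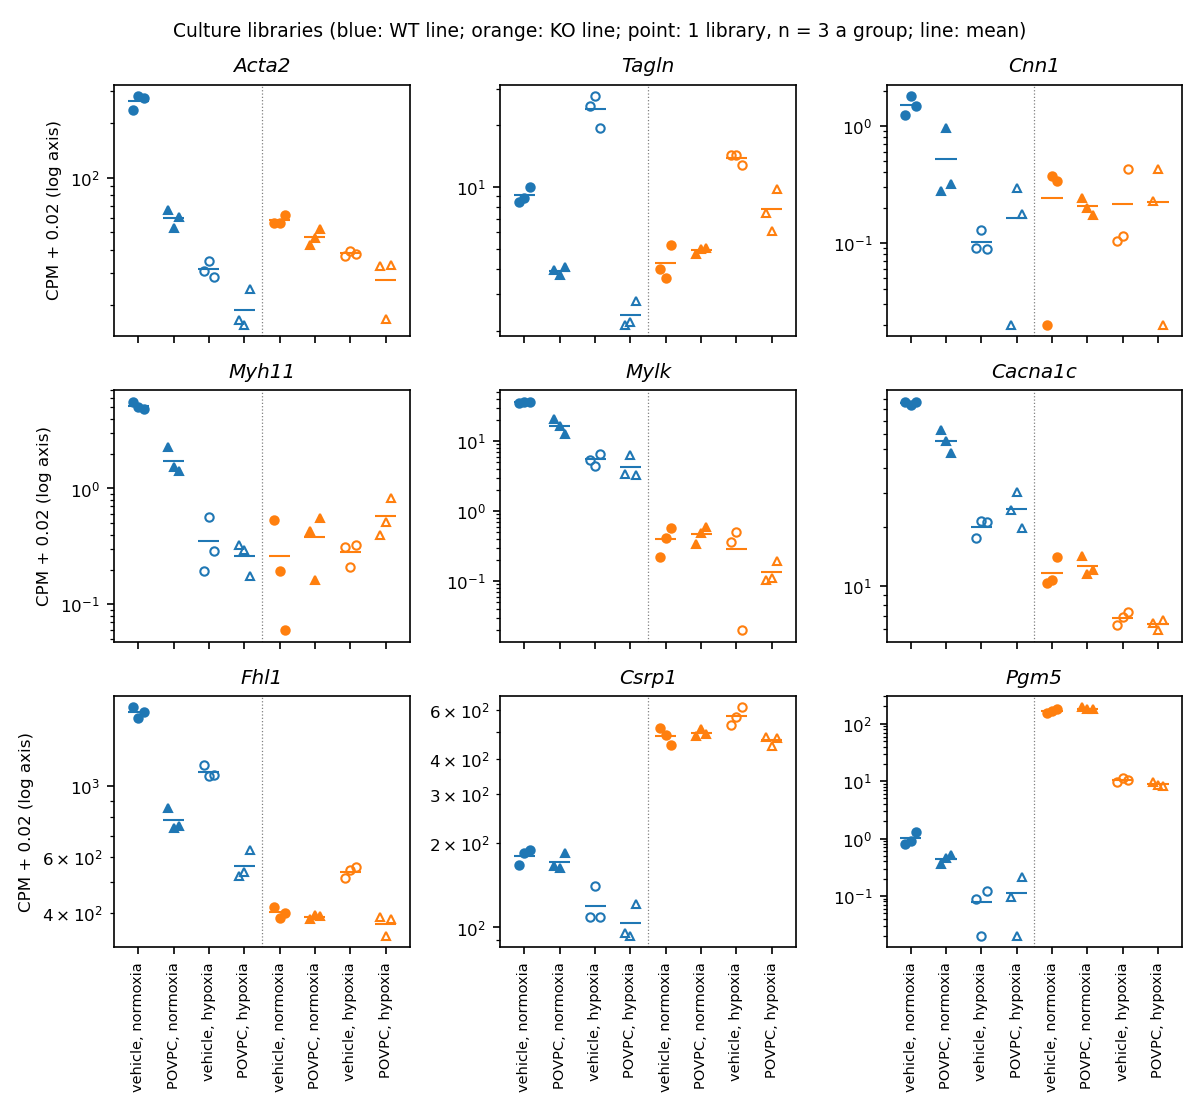
CPM (with a small offset, log axis) of 9 genes in the 24 culture libraries, WT in blue and KO in orange, vehicle as circles, POVPC as triangles, normoxia filled and hypoxia open. Acta2 is highest in the 3 WT vehicle normoxia libraries (233 to 280 CPM), Mylk lies at 0.573 CPM or less in every KO library, and Pgm5 is high only in the KO line, at 152 to 193 CPM in normoxia.

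Contractile genes were lower with POVPC in the WT line. In normoxia 18 of 32 fell (13.8% of all genes) and 2 rose (13.1% of all genes), with a median of -0.67 against -0.02 over all genes. In hypoxia 7 fell (12.7%) and 1 rose (8.22%), with a median of -0.21 against -0.01. The WT vehicle normoxia libraries also serve in the genotype and hypoxia comparisons, so these comparisons are not independent.

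Acta2 went from 233, 280 and 275 CPM under vehicle to 66.7, 52.5 and 60.9 with POVPC in WT normoxia (-2.13 ± 0.19, FDR 5.3e-08). These levels lay near those of the KO line under vehicle. Lmod1 went from 29.7, 34.7 and 33.3 CPM to 6.499, 6.77 and 6.44 (-2.31 ± 0.16), and Myl9 from 1.15, 1.65 and 1.23 CPM to 0.255, 0.290 and 0.099 (-2.57 ± 0.39). Tagln fell from 8.42, 8.81 and 9.94 CPM to 3.91, 3.69 and 4.06 (-1.22 ± 0.17), Myh11 by 1.58 ± 0.34 and Mylk by 1.11 ± 0.19 on the log2 scale. The abundant Fhl1 fell from 1770, 1644 and 1716 CPM to 855, 741 and 749 (-1.13 ± 0.08), and Fhl2 by 1.43 ± 0.11 on the log2 scale. Cnn1 fell at an FDR of 0.0464 (-1.52 ± 0.57). That call was lost without WT vehicle normoxia 1, 2 or 3 or WT POVPC normoxia 1 or 3 (-1.20 to -1.64), and with DESeq2, without the count filter and without robust fitting (-1.51 to -1.56), and the fall was -2.41 without WT POVPC normoxia 2. The 2 that rose were the smoothelin Smtn, from 34.6, 36.3 and 37.9 CPM to 116, 94.5 and 98.8 (1.505 ± 0.14), and Tagln2, the transgelin found widely outside muscle, from 139, 137 and 150 to 211, 215 and 227 (0.62 ± 0.07).

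In WT hypoxia fewer genes fell. Tagln went from 24.7, 27.6 and 19.3 CPM under vehicle to 2.12, 2.19 and 2.78 with POVPC (-3.28 ± 0.19, FDR 3.312e-13). Cald1 fell from 241, 185 and 217 CPM to 89.8, 87.4 and 92.4 (-1.25 ± 0.11), Fhl1 by 0.98 ± 0.08, and Myl9 by 2.22 ± 0.45 on the log2 scale (-3.56 without WT POVPC hypoxia 3). Srf rose by 0.58 ± 0.10. Acta2 fell by 0.69 ± 0.20, a call that was lost without WT POVPC hypoxia 1, WT POVPC hypoxia 2 or WT vehicle hypoxia 2 (-0.59 to -0.61). Without the 3 shallowest culture libraries its change was -0.37.

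In the KO line POVPC changed few genes of any kind. In normoxia 0 of 32 fell (0.0345% of all genes) and 0 rose (0.0069% of all genes) by edgeR, and 0 were called by DESeq2. At an unadjusted edgeR p under 0.05, 1 was lower (3.33% of all genes) and 2 were higher (4.08% of all genes). Acta2 was at 56.0, 56.5 and 62.4 CPM under vehicle and 42.8, 46.4 and 52.4 with POVPC, and Smtn at 64.3, 88.4 and 112 and 113, 99.3 and 105. Without KO vehicle normoxia 3, in which Rn45s held 8.02% of counts, 2 of the genes were called higher (1.52% of all genes). In KO hypoxia 2 fell (2.09% of all genes) and 2 rose (1.97% of all genes). Tagln went from 14.2, 14.3 and 12.7 CPM to 7.47, 6.05 and 9.69 (-0.84 ± 0.16) and Fhl1 from 514, 545 and 559 CPM to 389, 338 and 382 (-0.54 ± 0.08). Srf went from 38.1, 38.5 and 36.1 CPM to 63.8, 50.2 and 61.7 (0.64 ± 0.10). Synpo2 rose at an FDR of 0.0246 (1.36 ± 0.35), a call that was lost without KO POVPC hypoxia 1 or 3 or KO vehicle hypoxia 2 or 3 (1.16 to 1.34), without the 3 shallowest culture libraries (1.27) and with the compared groups fitted alone (1.35).

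The POVPC response itself differed between the lines. In normoxia the interaction (the KO change minus the WT change) was above 0 and passed the threshold in 15 of 32 genes (8.17% of all genes) and below 0 in 2 (8% of all genes), with a median of 0.73 against 0.02. The highest values were for Lmod1 (2.48 ± 0.25), Myl9 (2.32 ± 0.47) and Acta2 (1.82 ± 0.26), with Fhl2 at 1.45 ± 0.15, Tagln at 1.42 ± 0.24 and Fhl1 at 1.08 ± 0.11. Both negative values were for the genes that rose in WT, Smtn (-1.25 ± 0.19) and Tagln2 (-0.57 ± 0.10). The value for Myh11, 2.24 ± 0.68, rested on KO libraries with 1 to 14 counts. It was 3.31 without KO vehicle normoxia 1, and the call was lost without KO POVPC normoxia 1 or 3 or KO vehicle normoxia 2 or 3 (1.69 to 2.13). In hypoxia 5 genes had a positive interaction (5.89% of all genes) and 0 a negative one (3.48% of all genes). They included Tagln (2.44 ± 0.25), Synpo2 (2.37 ± 0.51), Cald1 (1.097 ± 0.16) and Fhl1 (0.44 ± 0.11). Without the 3 shallowest culture libraries, 2 of them WT POVPC hypoxia, the values were 1.93 for Synpo2 and 0.29 for Fhl1.

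Some genes around the contractile set moved with POVPC too. In WT normoxia 13.1% of all genes rose and 13.8% fell. In WT normoxia, of 18 other smooth muscle genes 9 fell and 4 rose, with the integrin Itga8 at -3.31, the pericyte and smooth muscle regulator Rgs5 at -2.04, the calponin Cnn2 at -1.22 and Filip1l at 1.39. Of the 6 immediate early genes, some of which Srf also drives, 5 rose, Junb by 2.77. Of 16 genes that control Srf and myocardin 2 rose and 3 fell, near the shares of all genes. Adventitial fibroblast markers went both ways (6 higher and 2 lower of 10, sums of 4528 to 4841 CPM with POVPC and 4900 to 4926 with vehicle), with Ly6a at 400 CPM against 9.22. The part of these markers was not tested. With Rn45s and Rpph1 left out the counts of called genes were within 1.5 times those above.

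**Figure D5:**
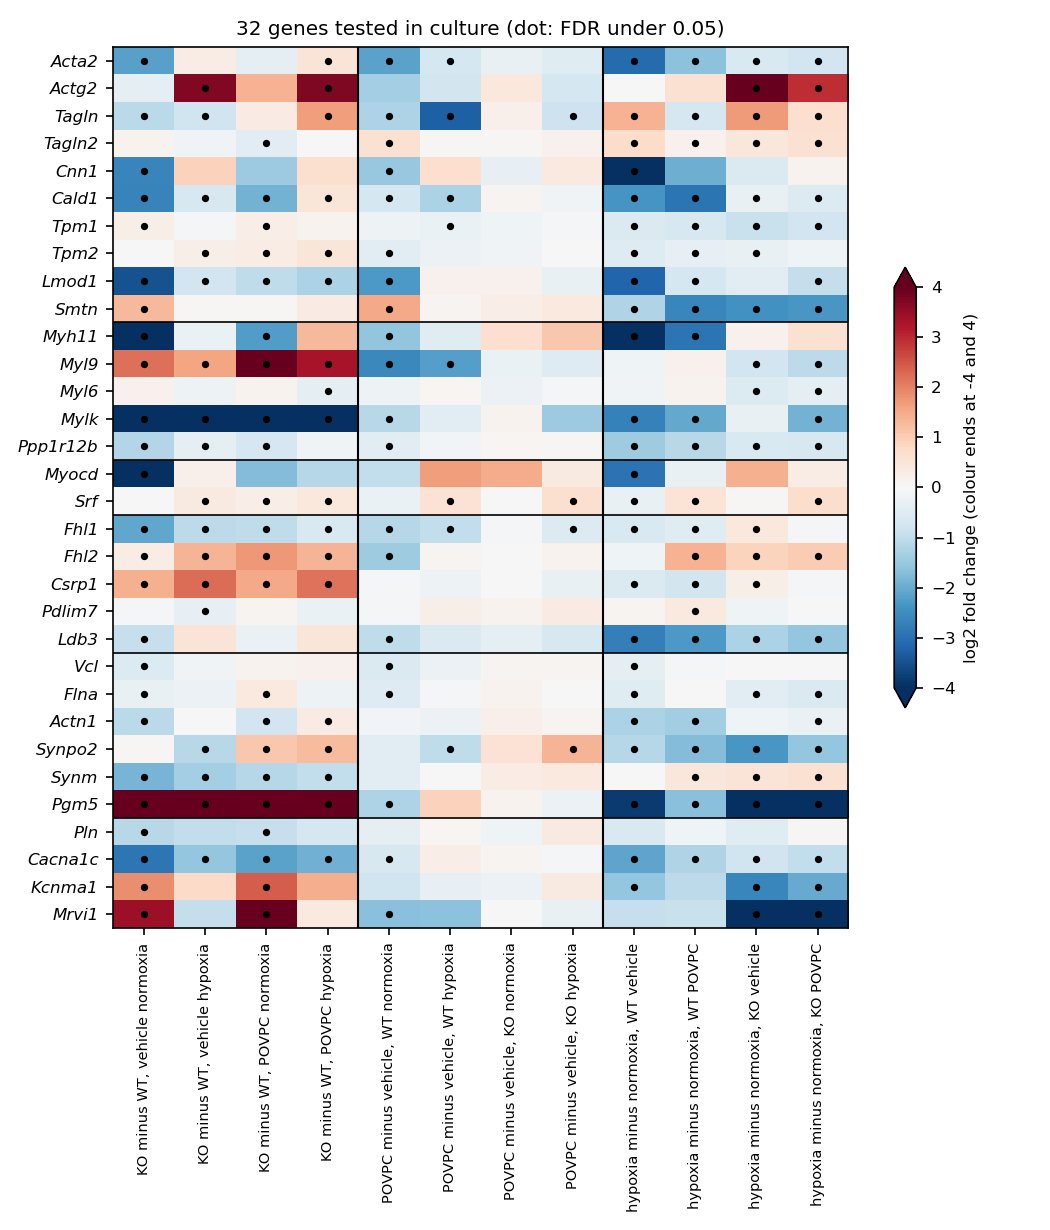
Log2 fold changes of the 32 tested genes (rows, by role) in the 12 culture comparisons of groups (columns), blue below 0 and red above, with a dot where the FDR was under 0.05. The WT columns for POVPC in normoxia and for hypoxia are mostly blue (18 and 22 of 32 lower), and the KO column for POVPC in normoxia holds no dot.

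With hypoxia most contractile genes fell in the WT line, and in the KO line about as many fell as did not under vehicle. In the WT line under vehicle 22 of 32 fell (35.3% of all genes) and 2 rose (32.8% of all genes), and with POVPC 17 fell (34.3%) and 5 rose (31.8%). In the KO line under vehicle 15 fell (32.8%) and 7 rose (32.6%), and with POVPC 17 fell (33.9%) and 6 rose (34.5%). The medians were -0.77, -0.68, -0.37 and -0.32, while those over all genes lay between -0.03 and 0.03.

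In WT vehicle Acta2 went from 233, 280 and 275 CPM in normoxia to 30.5, 34.8 and 28.6 in hypoxia (-3.07 ± 0.20, FDR 5.897e-11). Mylk went from 35.1, 36.4 and 35.5 CPM to 5.36, 4.39 and 6.57 (-2.70 ± 0.21), and Cald1 from 1097, 1108 and 1087 CPM to 241, 185 and 217 (-2.36 ± 0.11). Myh11 went from 155, 159 and 133 counts to 5, 10 and 8 (-4.04 ± 0.43), and Cnn1 reached 2 counts in each hypoxic library (-4.14 ± 0.76, FDR 1.946e-05). Lmod1 fell by 3.18 ± 0.17, Cacna1c by 2.10 ± 0.13 and Ppp1r12b by 1.43 ± 0.10 on the log2 scale. The genes that rose were Tagln, from 8.42, 8.81 and 9.94 CPM to 24.7, 27.6 and 19.3 (1.39 ± 0.15), and Tagln2 (0.74 ± 0.07). So Acta2 and Tagln, both used as smooth muscle markers, went opposite ways. In the KO line under vehicle Tagln rose by 1.69 ± 0.17, while Acta2 went from 56.0, 56.5 and 62.4 CPM to 37.2, 39.6 and 38.2 (-0.61 ± 0.19). With POVPC in WT, Tagln fell in hypoxia (-0.67 ± 0.21), as did Acta2 (-1.64 ± 0.20). Without the 3 shallowest culture libraries the change in Tagln was -0.46.

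Of the 8 genes that were higher in the KO line than in WT under vehicle and normoxia, Pgm5, Mrvi1, Kcnma1, Smtn, Myl9 and Tpm1 fell with hypoxia in the KO line under vehicle. Fhl2 and Csrp1 rose there. Of all genes 32.8% fell and 32.6% rose in that comparison. The 8 were picked for high values in the KO vehicle normoxia libraries, from which these changes are also measured, so the choice favoured a fall. Pgm5 went from 152, 166 and 184 CPM to 9.53, 11.2 and 10.4 under vehicle (-4.01 ± 0.12, FDR 4.986e-22). Mrvi1 went from 5.84, 4.996 and 6.85 CPM to 0.169, 0.191 and 0 (-5.29 ± 0.53). Kcnma1 fell by 2.61 ± 0.51 and Smtn, from 64.3, 88.4 and 112 CPM to 17.97, 16.01 and 14.47, by 2.44 ± 0.15 on the log2 scale. The change was -0.78 ± 0.24 for Myl9, -0.88 ± 0.08 for the tropomyosin Tpm1 and 0.23 ± 0.09 for Csrp1, whose call was lost under 10 alternatives (0.14 to 0.23). Actg2 rose from 2, 2 and 0 counts to 20, 16 and 19 (FDR 0.0004683). Fhl2, a coactivator of the LIM family, rose in both KO comparisons (0.89 ± 0.10 and 1.00 ± 0.10) and in WT with POVPC (1.38 ± 0.12). Srf rose with hypoxia in the presence of POVPC, by 0.55 ± 0.10 in WT and 0.70 ± 0.09 in KO, and fell in WT vehicle (-0.28 ± 0.10, a call lost without WT vehicle hypoxia 2, at -0.23).

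The hypoxia response also differed between the lines. Under vehicle 14 genes had an interaction above 0 (19.2% of all genes) and 5 below 0 (19.9% of all genes), with a median of 0.44 against 0.03. Scaled by library size alone the split was 17 above (20.6% of all genes) and 2 below (13.7%). The highest called values with counts in all groups were Lmod1 (2.72 ± 0.28), Acta2 (2.47 ± 0.27), Cald1 (2.05 ± 0.16) and Cacna1c (1.32 ± 0.19). Mylk had 2.42 ± 0.64 on 0 to 14 counts in each KO library, a call lost without KO vehicle hypoxia 2 (1.95). Myh11 had 4.22 ± 0.86 on 1 to 10 counts in each KO library (5.29 without KO vehicle normoxia 1). Smtn had -1.24 ± 0.20. With POVPC 9 genes were above 0 (15.7% of all genes) and 4 below (14.4% of all genes), with a median of 0.19 against 0.04. Cald1 (2.35 ± 0.16), Tagln (1.32 ± 0.26) and Actn1 (1.11 ± 0.12) were among those above 0.

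Smooth muscle genes outside the 37 fell with hypoxia as well. Under vehicle 14 of 18 fell and 2 rose in WT, and 15 fell and 2 rose in KO. Of all genes 35.3% fell and 32.8% rose in WT under vehicle, and 32.8% fell and 32.6% rose in KO. In WT Itga8 fell by 7.07, Notch3, the Notch receptor of arterial smooth muscle, by 5.15 and Rgs5 by 4.78 on the log2 scale. Of 16 genes that control Srf and myocardin 9 fell and 3 rose in WT, Klf4 by 1.65. Of the 6 immediate early genes 5 rose. Of 10 adventitial fibroblast markers 7 fell and 2 rose in WT and 9 fell and 0 rose in KO. Their summed CPM went from 4900 to 4926 to 653 to 698 in WT and from 3889 to 4549 to 932 to 984 in KO, with Dcn going from 4348 to 528 CPM and Pdgfra from 266 to 6.47 in WT. The 2 that rose in WT, named after their values were seen, were Ly6a (9.22 to 56.0 CPM) and Dpt (9.76 to 16.8). Their part in the contractile genes was not tested.

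Scaling by library size alone shifted the median of all genes by over 0.1 (log2) in 3 group comparisons that lead the account above, to -0.16 in KO against WT under vehicle and normoxia, -0.13 for POVPC in WT normoxia and -0.21 for hypoxia in WT vehicle. The medians of the contractile genes in these comparisons were -0.46, -0.67 and -0.77 with TMM scaling. They rest on another scaling than the shifted medians of all genes, so the difference between them cannot be read. For hypoxia in WT with POVPC, where the shift was to -0.11, that scaling gave 2 higher (26.2% of all genes) and 18 lower (36%) in place of 5 and 17.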

How the data were processed

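RNA was sequenced from 8 lesion and 24 culture libraries. The authors deposited raw counts per gene, which per the file headers came from featureCounts 1.4.4 over UCSC mm9 exons grouped by gene name, unstranded, as fragments in lesions and with each mate counted separately in culture. The submitters' processing notes also name CASAVA, STAR and DESeq2. The test on the deposited counts was the quasi-likelihood test of edgeR 4.0.16 (R 4.3.3; robust, TMM, filterByExpr with a minimum count of 10 and total of 15), with lesions apart from culture and culture in 1 model of 8 groups. P-values were adjusted by Benjamini-Hochberg over all genes tested, 2-sided. CPM were computed from the counts, and a standard error is the log2 fold change divided by the square root of F. Per-kilobase values use the deposited exon lengths. Steps were tested on simulated data. Alternatives were DESeq2 1.42.0, other scalings and filters, a 2-fold minimum, the replicate block, halved counts and left-out libraries.

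The genes, lists and tests were chosen with earlier results of these data known. Values are given per library for Acta2, Myh11, Tagln, Cnn1, Myocd and Mylk and for the called genes with the largest change in each comparison (in lesions, the 6 with the smallest p). Other genes stand by role, and up to 4 per related list by smallest p. Lesion and culture replicate numbers did not pair samples (the closing section gives the check). A related gene list is not reported here.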

Additional observations from a re-analysis of the deposited data

Results flagged for a closer look

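In the KO lesions the LIM protein Csrp1 was at 402 CPM in animal 1 and at 454 to 457 in the other 3, a gap large for the group's range (0.946 of it). This was 1 of 74 groups examined, and chance sets apart about 1 in 20.

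The remaining 4 results are genes whose change had opposite signs in the lines, each with an interaction that passed the FDR threshold in edgeR. The POVPC change of Synpo2 in hypoxia was 1.36 in KO and -1.01 in WT (interaction 2.37). The WT call was lost under 11 alternatives (-0.656 to -1.03) and the KO call under 6 (1.16 to 1.35). Without the 3 shallowest culture libraries the interaction was 1.93. The hypoxia change of Fhl1 under vehicle was 0.426 in KO and -0.623 in WT (interaction 1.05), and that of Csrp1 was 0.231 and -0.59 (interaction 0.821). With POVPC the hypoxia change of Tagln was 0.656 in KO and -0.666 in WT (interaction 1.32), where the WT change was -0.459 without the 3 shallowest culture libraries. The KO change of Csrp1 was no longer called without KO vehicle hypoxia 2 or 3 or KO vehicle normoxia 2 or 3 (0.175 to 0.233), nor with RLE scaling (0.21), library size alone (0.141), DESeq2 (0.21), no filter (0.175), the 3 shallowest culture libraries left out (0.165) or Rn45s and Rpph1 left out (0.207).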

How the results depend on the processing

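No called result changed direction under the alternatives run, and counts of called genes not named here were within 1.5 times those reported. In lesions DESeq2 called 9 of 37, the other alternatives 0, and leaving out a library moved the median between -0.29 (without WT 3) and -0.49 (without KO 4). With a 2-fold minimum the counts called, each with the share of all genes, were 10 for KO against WT in vehicle hypoxia (20.7%), 14 in POVPC normoxia (20.9%) and 10 in POVPC hypoxia (18.8%). For POVPC they were 13 in WT normoxia (6.97%), 4 in WT hypoxia (3.23%) and 1 in KO hypoxia (0.414%), and for hypoxia 12 in WT with POVPC (27.4%), 8 in KO vehicle (26.1%) and 10 in KO with POVPC (29.3%). The interactions gave 10 for POVPC in normoxia (5.95%) and 6 for hypoxia with POVPC (10.2%). Leaving out the 3 shallowest culture libraries left 1 library of WT POVPC hypoxia. For that fit the counts for POVPC in WT hypoxia and for the POVPC interaction in hypoxia, which fell by more than 1.5 times, are not given. Leaving out 1 library gave 0 to 2 for POVPC in KO normoxia; the cause was not tested. Over the genes called in a comparison and the lesion genes, leaving out a library lost 162 calls and kept 2002 results on their side of the threshold. The other alternatives lost 85, gained 9 (lesion genes with DESeq2) and kept 3048. Another 8 values, of 5 lesion genes that were not called (Cald1, Fhl2, Myl6, Pgm5 and Pln), crossed 0 and lay between -0.07 and 0.06.

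Replicate numbers did not pair samples: deviations of same-numbered culture libraries correlated at a median of 0.017 (-0.24 to 0.33), 13 of 84 over 0.1, and those of the 4 lesion pairs between -0.64 and 0.11. With the replicate block 0 lesion genes were called (median -0.40), 19 in place of 18 for KO against WT with POVPC in hypoxia, 16 in place of 17 for the POVPC interaction in normoxia and 20 in place of 19 for the hypoxia interaction under vehicle. The other counts did not change with the block.

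Depth limits the genes with few culture counts, among them Myocd, Cnn1, Actg2 and, in the KO line, Myh11 and Mylk. Genotype in culture rests on 1 line each.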
